A study of Polistes fuscatus with 17 samples.

Results

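In this set are contigs, assembled stretches of RNA sequence, whose level was higher in each of 8 worker brains than in any of 9 foundress brains of the paper wasp Polistes fuscatus. They were chosen by their CPM, the count of a contig per 1000000 counts of its library. A contig could be chosen if its mean over all wasps was at least 1 CPM and it was not among the 100 most abundant, which left 50494 of 157691 contigs. Of these, 620 contigs, 1.23%, had the lowest worker above the highest foundress, and the 300 with the largest ratio of the worker mean over the foundress mean were kept, 0.594% of those that could be chosen. The opposite order, each foundress above each worker, was met by 122 contigs, 0.242%. Both counts use CPM by totals, a scale on which the middle of all contigs lay on the worker side, as given below. The opposite order is given on this scale only. Leaving out a wasp loosens the rule, so both counts could hardly fall, but they rose by unequal amounts. They were 1151 and 338 without FW28 and 1025 and 172 without F55. With any other wasp left out they were 629 to 841 and 129 to 179. The choice used the levels of all 17 wasps, so every difference between workers and foundresses given here describes the choice and carries no test.

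Each library came from the brain of 1 adult female that went through 40 trials in a T-maze and was frozen 30 minutes after the last. The 4 allospecific workers had been kept as adults on a nest of another species, P. metricus, and 2 of them were collected in July and 2 in August. The 4 conspecific workers had been kept on a nest of their own species that was not the one they hatched in, 3 collected in July and 1 in August. All 8 workers were trained to faces of P. fuscatus. Of the foundresses, 5 were trained to faces and collected in May, and 4 were trained to simple patterns, 2 collected in May and 2 in June. Caste, season, rearing on a foreign nest and, between workers and pattern-trained foundresses, the training stimulus therefore differ together and cannot be told apart.

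Foundresses of paper wasps are mated females that overwinter and start nests in spring, and they lay the eggs. Workers are mostly their daughters, which emerge in summer, forage and feed the brood. In the genus the castes have no fixed body form, so differences between them lie largely in physiology and behaviour, and P. fuscatus is known for telling individuals apart by their facial markings. In whole brains, more RNA per cell and more cells of a type cannot be told apart.

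No contig carries a gene name here. None of the identifiers (0 of 157691) occurs among the 13634 entries of the RefSeq gene table of assembly CU_Pfus_HIC, so contigs go by their identifiers, no marker of brain or of other tissue could be looked up, and no sequence was at hand. Total counts ran from 16475310 to 20180047 in workers and from 7694420 to 20360420 in foundresses. Foundress F17, trained to patterns, stood apart: it was the lowest foundress at 43.7% of all contigs that could be chosen, against 3.05 to 16.1% for the other foundresses. At 183 of the 300 members F17 was the lowest foundress too. Both results use CPM by total counts. The factor of TMM, a scaling described below that centres the bulk of contigs, was 0.785 for F17 and 0.911 to 1.103 for the other wasps. On that scale the levels of F17 rise against those of every other wasp. How often F17 was the lowest foundress on that scale was not counted. Leaving F17 out changed the median ratio of workers over foundresses to 1.83, against 1.92 with it, and each of the 300 members kept a ratio of at least 1.5.

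Most members differed by about 2-fold, at levels from rare to abundant. The ratio of mean CPM ran from 1.66 to 475, with quartiles of 1.75 and 2.24. In all, 178 members lay under 2, 92 between 2 and 3, 24 between 3 and 5, 3 between 5 and 10, and 3 far beyond. The median over all contigs that could be chosen was 1.08. Mean worker levels ran from 1.42 to 585.6 CPM with a median of 17.3 CPM, and mean foundress levels from 0.0267 to 318.5 CPM with a median of 8.07 CPM. Contigs that could be chosen had a median of 7.03 CPM in workers and 6.50 CPM in foundresses, so the median member was the more abundant in both castes. Members held 1.51 to 1.96% of the counts of each worker and 0.698 to 0.985% of the counts of each foundress.

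**Figure D1:**
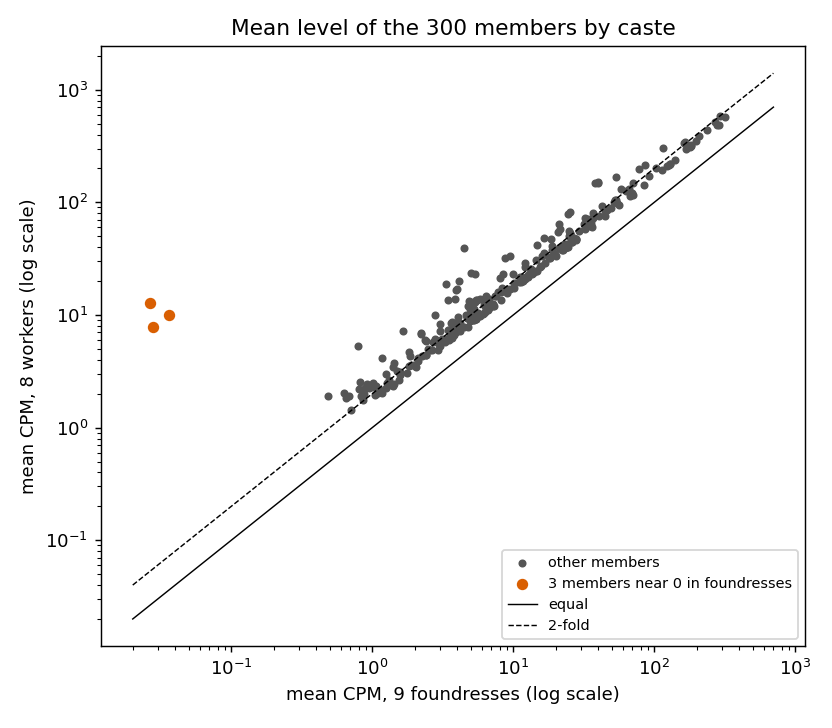
Mean CPM of each of the 300 members in the 8 workers (vertical, log scale) against the 9 foundresses (horizontal, log scale), with lines at equal and at 2-fold levels. Most points lie near the 2-fold line over the whole range of levels, and 3 members with foundress means of 0.0267 to 0.0359 CPM lie far to the left.

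Total counts put the middle of all contigs on the worker side. The median log2 ratio of workers over foundresses was 0.11 over the contigs that could be chosen when libraries were scaled by totals, and 0.00 when they were scaled by TMM (trimmed mean of M-values, which centres the bulk of contigs). On the TMM scale the members' median log2 ratio was 0.84, against 0.94 by totals, and 236 still had every worker above every foundress. All 300 had the higher mean in workers there too. The choice, with ratios of at least 1.66 by totals, largely fixed that outcome.

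The gap between the castes was narrow for many members and wide for a few. The lowest worker over the highest foundress had a median of 1.14 over the members. It was under 1.1 for 122 members and at least 1.5 for 30, and it reached 2 in 7. Just inside the rule, PfusTSAr1.0-088914 had 5.668 CPM in its lowest worker and 5.666 CPM in its highest foundress, PfusTSAr1.0-090083 had 166.2 and 166.1 CPM, and PfusTSAr1.0-106025 had 1.958 and 1.956 CPM. Just outside it, PfusTSAr1.0-047322 had 184.4 CPM in its lowest worker and 184.5 CPM in its highest foundress, PfusTSAr1.0-088548 had 233.4 and 233.6 CPM, and PfusTSAr1.0-096018 had 7.04 and 7.05 CPM. At the limit on number, the last 3 kept, PfusTSAr1.0-080983, PfusTSAr1.0-089603 and PfusTSAr1.0-093526, had ratios of means of 1.660, 1.659 and 1.658. The first 3 left out, PfusTSAr1.0-031504, PfusTSAr1.0-072221 and PfusTSAr1.0-075300, had ratios of 1.652, 1.651 and 1.649. Contigs on either side of both limits were thus nearly alike.

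Wasps took unequal parts in setting the edge. Worker FW28, from a conspecific nest, was the lowest worker at 99 members, FW47 at 53 and FW11 at 49, and FW44, from an allospecific nest, at 9. FW44 was the highest worker at 115 members and FW28 at 3. FW28 was also the lowest worker at 25.2% of all contigs that could be chosen. Among foundresses F52 was the highest at 64 members, F25 at 60, F3 at 59 and F55 at 48, and F42 at 3. How often each wasp was the highest of its caste over all contigs that could be chosen was not counted. The numbers for the highest worker and foundress thus show nothing particular to the members. The median member stood at 1.67 times the foundress mean in FW28, the lowest of the workers, and at 2.18 times in FW44, the highest. The other 6 workers lay between 1.87 and 2.03 times. In foundresses it stood between 0.810 and 1.15 times their mean, apart from F17 at 0.614 times.

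**Figure D2:**
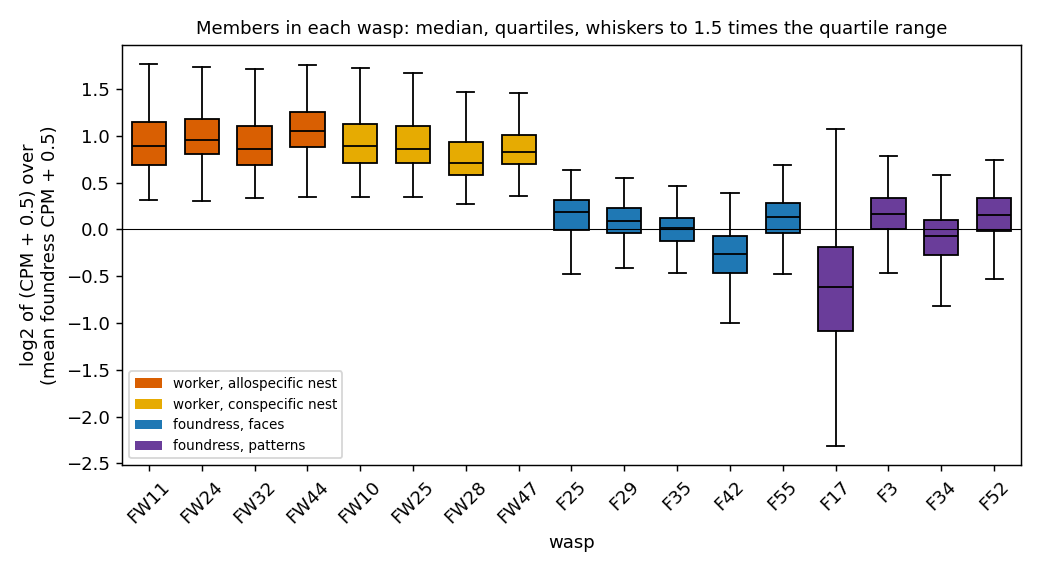
Level of the members in each wasp, as log2 of (CPM + 0.5) over (mean foundress CPM + 0.5), with a box for the quartiles, a line at the median and whiskers to 1.5 times the quartile range. Worker medians run from 0.71 in FW28 to 1.05 in FW44. Foundress medians run from -0.61 in F17 to 0.18 in F25, and the box of F17 is the longest.

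Choosing the contigs without a wasp and then reading that wasp gave the same measure in a brain the choice had not used. Each time the rule was applied to the other 16 wasps and 300 contigs were kept. A worker held out in this way lay above all foundresses at a median of 93.7% of the contigs chosen without it, where it lay there at a median of 16.4% of all contigs that could be chosen. The share was lowest in FW28, 76.0%, then FW11, 84.7%, and ran from 93.0 to 98.7% in the other 6 workers. A foundress held out lay below all workers at a median of 94.7% of the contigs chosen without it, against 25.3% of all. The share was lowest in F55, 78.7%, then F3, 83.7%, and ran from 87.7 to 99.0% in the other 7. A held-out worker exceeded the foundress mean at a median of 99.3% of the contigs chosen without it, against 59.7% of all, and a held-out foundress lay below the worker mean at 98.7%, against 66.0% of all. The held-out wasp came from the same collections and groups as wasps that were used, so season and rearing were shared. It was also read against the very wasps of the other caste whose levels had chosen the contigs. The contigs that could be chosen were not picked for a gap in those wasps. The shares are thus partly set by the choice and carry no test.

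Levels of members were more even among workers than among foundresses. The coefficient of variation (SD over mean) had a median of 14.9% over the members among workers and 26.6% among foundresses, or 21.0% without F17. The contigs that could be chosen had medians of 16.05%, 26.4% and 20.2%, so their castes differed likewise. Of the members, 25 varied more among workers than among foundresses, and 54 did so without F17. The share of all contigs that could be chosen was not counted, so these numbers show nothing particular to the members.

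After the 3 members near 0 in foundresses, the largest ratios belonged to a pair of neighbouring contigs. PfusTSAr1.0-026526 had 61.5, 33.5, 49.7 and 40.5 CPM in allospecific workers and 46.8, 44.2, 22.7 and 17.5 CPM in conspecific workers. It had 3.75, 3.78, 2.53, 3.41 and 3.44 CPM in foundresses trained to faces and 11.9, 6.37, 3.15 and 1.70 CPM in those trained to patterns. FW28 and FW47 were the low workers and F17 the high foundress. The ratio of means was 8.88, or 11.2 without F17. PfusTSAr1.0-026527 had a lowest, median and highest of 7.67, 19.1 and 28.8 CPM in workers and 0.694, 2.66 and 7.54 CPM in foundresses, with a ratio of 5.68. Its lowest worker was FW28 and its highest foundress F17, which nearly met. The deviations of the 2 contigs from their caste means, in log2(CPM + 0.5), correlated across the 17 wasps at r = 0.90, and the contigs may share reads.

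PfusTSAr1.0-025172 was rarer, at 3.16, 6.18 and 6.69 CPM (lowest, median, highest) in workers and 0, 0.520 and 2.75 CPM in foundresses. Here too F17 was the highest foundress, and the ratio was 6.74, or 9.80 without F17. PfusTSAr1.0-049131 had 15.6, 19.5 and 26.3 CPM in workers and 2.59, 3.56 and 7.41 CPM in foundresses, a ratio of 4.88. It averaged 19.99 ± 4.27 CPM (SD, n = 8) in workers and 4.10 ± 1.66 CPM (n = 9) in foundresses, and its lowest worker was 2.10 times its highest foundress. PfusTSAr1.0-029891 had 6.25, 6.76 and 9.27 CPM in workers and 0.520, 1.64 and 2.68 CPM in foundresses, a ratio of 4.39, with a gap of 2.33-fold. Its neighbours PfusTSAr1.0-029889 and PfusTSAr1.0-029890 were members as well, with ratios of 3.65 and 3.61.

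The largest stretch of neighbouring members with high ratios ran from PfusTSAr1.0-080695 to PfusTSAr1.0-080708. Of the 14 identifiers it spans, 11 were members, with ratios of 2.87 to 4.68 and a median of 3.79. Worker means ran from 9.93 to 151.6 CPM and foundress means from 2.77 to 40.0 CPM. PfusTSAr1.0-080703 had 29.8, 28.5, 25.9 and 25.5 CPM in allospecific workers and 28.3, 21.2, 15.2 and 14.2 CPM in conspecific workers. It had 6.09, 6.14, 5.57, 4.51 and 5.01 CPM in foundresses trained to faces and 1.97, 7.15, 4.43 and 4.42 CPM in those trained to patterns. FW28 and FW47 were again the low workers, while F17 was here the low foundress. PfusTSAr1.0-080701 had 14.0, 23.7 and 29.9 CPM in workers and 1.44, 5.45 and 7.93 CPM in foundresses, a ratio of 4.28. The most abundant of the stretch, PfusTSAr1.0-080706, had 112.0, 156.6 and 187.9 CPM in workers and 24.1, 43.0 and 53.1 CPM in foundresses, a ratio of 3.79 and a gap of 2.11-fold.

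Wide gaps at higher levels were found in PfusTSAr1.0-065074 and PfusTSAr1.0-033608. PfusTSAr1.0-065074 had 159.3, 183.3, 167.2 and 198.2 CPM in allospecific workers and 169.4, 165.1, 159.3 and 141.7 CPM in conspecific workers. It had 66.4, 65.5, 63.2, 28.8 and 46.0 CPM in foundresses trained to faces and 33.7, 65.2, 53.4 and 59.6 CPM in those trained to patterns. The ratio was 3.14 and the gap 2.13-fold, and all 4 members of its run, PfusTSAr1.0-065071 to PfusTSAr1.0-065074, had ratios of 2.21 to 3.14. PfusTSAr1.0-033608 had 29.6, 32.5 and 39.0 CPM in workers and 3.80, 10.5 and 14.0 CPM in foundresses, with a ratio of 3.52 and a gap of 2.11-fold.

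**Figure D3:**
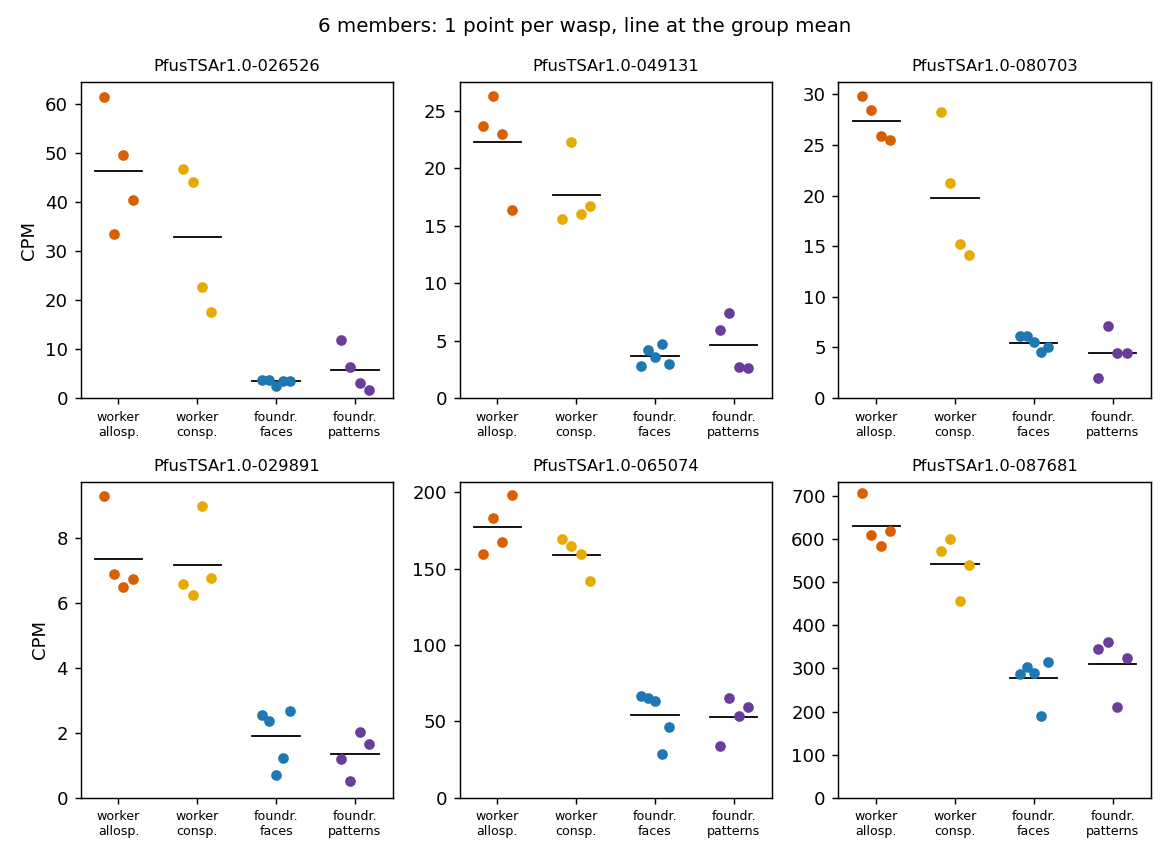
CPM of 6 members in each wasp, with a point per wasp and a line at the mean of each group, workers left and foundresses right. In PfusTSAr1.0-026526 the conspecific workers spread from 17.5 to 46.8 CPM, and in PfusTSAr1.0-065074 all workers lie between 141.7 and 198.2 CPM, above foundresses at 28.8 to 66.4 CPM.

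The most abundant members had ratios near 2 or below. PfusTSAr1.0-087681 had 456.8, 592.4 and 706.1 CPM in workers and 190.7, 304.3 and 361.3 CPM in foundresses, a ratio of 2.01. It averaged 585.6 ± 70.9 CPM (SD, n = 8) in workers and 291.8 ± 57.2 CPM (n = 9) in foundresses. PfusTSAr1.0-113979 had 449.2, 588.0 and 655.7 CPM in workers and 257.8, 307.2 and 417.7 CPM in foundresses, a ratio of 1.79. PfusTSAr1.0-093097 averaged 517.4 ± 63.7 CPM in workers and 269.5 ± 60.5 CPM in foundresses, and PfusTSAr1.0-110809 488.5 ± 64.8 CPM in workers and 280.2 ± 44.3 CPM in foundresses. FW28 was the lowest worker at 3 of these 4 contigs, and FW47 at PfusTSAr1.0-093097. PfusTSAr1.0-081079 was the steadiest of the abundant members, with 461.0, 480.5 and 539.8 CPM in workers and 222.3, 292.8 and 334.6 CPM in foundresses, a ratio of 1.69. The neighbours PfusTSAr1.0-080254 and PfusTSAr1.0-080255 had ratios of 1.89 and 1.86, and PfusTSAr1.0-064391 and PfusTSAr1.0-064393 had ratios of 2.06 and 2.08. These 4 had worker means of 388.7, 438.1, 343.0 and 339.2 CPM, and FW28 was the lowest worker at 3 of them, FW24 at PfusTSAr1.0-080255.

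Many members lay beside other members in the order of identifiers, which the rule did not use. The 300 contigs formed 225 runs of consecutive identifiers, of which 177 held 1 member and 48 held at least 2, with 123 members in those 48. The longest run had 11 members, PfusTSAr1.0-081300 to PfusTSAr1.0-081310. Their ratios lay between 1.72 and 1.89, with worker means of 76.1 to 349.6 CPM and foundress means of 40.3 to 198.6 CPM. Its most abundant contig, PfusTSAr1.0-081302, had 285.0, 337.9 and 493.5 CPM in workers and 137.0, 189.4 and 251.4 CPM in foundresses. FW11 was the lowest worker at the other 10 contigs of the run, PfusTSAr1.0-081300, PfusTSAr1.0-081301, PfusTSAr1.0-081303, PfusTSAr1.0-081304, PfusTSAr1.0-081305, PfusTSAr1.0-081306, PfusTSAr1.0-081307, PfusTSAr1.0-081308, PfusTSAr1.0-081309 and PfusTSAr1.0-081310. Deviations from the caste means, in log2(CPM + 0.5), correlated between the 11 contigs at r = 0.592 to 0.995, with a median of 0.973, across 17 wasps. How reads matching several contigs were counted is not known, so a number of contigs is not a number of genes.

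Contigs next to a member that were not members themselves leaned to the same side. Of 416 such contigs, 256 could have been chosen. Their median ratio of workers over foundresses was 1.36, against 1.08 for all that could be chosen, and 214 of them, 83.6%, had the higher mean in workers, against 64.7%. Of the 256, 17 had met the rule and were left out by the limit on number. Neighbours may share reads with members. Their lean may thus repeat the values that chose the members, and it carries no test.

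3 members were near 0 in foundresses and uneven among workers. PfusTSAr1.0-023698 had 1.29, 1.24, 1.09 and 0.507 CPM in allospecific workers (FW11, FW24, FW32, FW44) and 14.8, 0.782, 14.7 and 66.9 CPM in conspecific workers (FW10, FW25, FW28, FW47). It had 0.117 CPM in F55, 0.0656 CPM in F17, 0.0578 CPM in F42 and 0 counts in the other 6 foundresses. Among workers 3 conspecific wasps were high, while the fourth, FW25, lay among the allospecific workers. All 9 foundresses together had 4 counts, so the ratio of 475 rests on very few foundress reads. It was 184 without FW47 and 821 without F55, and 422 to 581 without any other single wasp.

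PfusTSAr1.0-029152 had 0.161, 0.198, 0.425 and 0.253 CPM in allospecific workers and 16.5, 0.361, 6.57 and 37.9 CPM in conspecific workers, in the same order of wasps. It had 0.131 CPM in F17, 0.0708 CPM in F25 and 0.0491 CPM in F29, which are 4 counts, and 0 counts in the other 6 foundresses. PfusTSAr1.0-029153 had 0.429, 0.446, 0.486 and 0.659 CPM in allospecific workers and 15.1, 0.962, 11.6 and 49.5 CPM in conspecific workers. It had 0.142 CPM in F25, 0.0671 CPM in F34, 0.0656 CPM in F17 and 0.0491 CPM in F29, 5 counts in all, and 0 in the other 5. The ratio of PfusTSAr1.0-029152 was 279, or 125 without FW47 and 520 without F17, and that of PfusTSAr1.0-029153 was 275, or 118 without FW47 and 436 without F25. A count of 0 allows up to 0.147 to 0.390 CPM in a foundress library, taking 3 counts of its total as the limit. The allospecific values of PfusTSAr1.0-029152 were 3, 4, 7 and 5 counts.

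**Figure D4:**
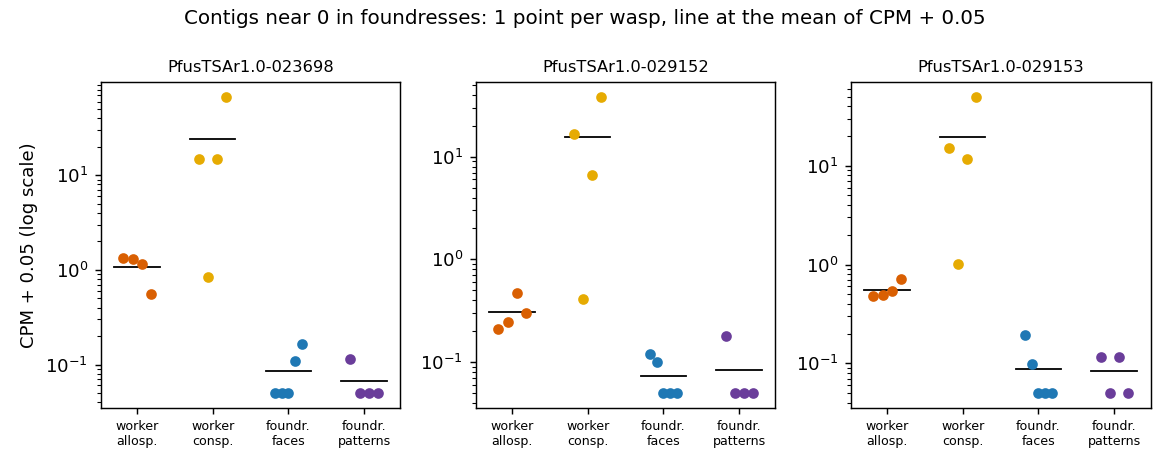
Level of the 3 members near 0 in foundresses, as CPM + 0.05 on a log scale, with a point per wasp and a line at the mean of each group. Conspecific workers FW10, FW28 and FW47 lie at 6.57 CPM or above in each panel, and FW25 lies beside the allospecific workers.

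The 3 contigs had like levels across the wasps. Of all contigs that could be chosen, PfusTSAr1.0-029153 and PfusTSAr1.0-029152 were the most like PfusTSAr1.0-023698 across the 17 wasps, at r = 0.98 and 0.97 of log2(CPM + 0.5), and the next, PfusTSAr1.0-074442, reached r = 0.82. PfusTSAr1.0-029152 and PfusTSAr1.0-029153 are neighbours and may share reads, but PfusTSAr1.0-023698 is not beside them in the order of identifiers. Caste means were left in these correlations. The difference between castes that chose the contigs is thus part of each r, which carries no test.

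The nest on which a worker had been kept was not used by the rule, and members were mostly somewhat higher in allospecific workers. In the fit across all contigs the log2 fold change of allospecific over conspecific workers was above 0 in 246 of the 299 members tested, 82.3%, against 49.8% of all 61002 contigs tested. Its median was 0.15 over the members and 0.00 over all. By totals, the median member stood at 1.91 to 2.18 times the foundress mean in single allospecific workers. In single conspecific workers it stood at 1.67 to 1.94 times, so the nest groups overlapped. The 1 member not tested, PfusTSAr1.0-029152, did not pass the filter on low counts. Over the 24 alternatives the share of members above 0 ran from 74.0% without FW44 to 85.3% without FW25, and it was 80.9% without FW28. The members share libraries and may share reads, so their number is not a number of independent results.

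Single members rarely passed the test between nests. 1 member, PfusTSAr1.0-029153, passed an FDR (false discovery rate, the share of false calls among calls) of 0.05 in edgeR's quasi-likelihood test, where 7 of 61002 contigs did, 0.0115%. It averaged 0.505 ± 0.105 CPM in allospecific workers and 19.3 ± 21.0 CPM in conspecific workers (SD, n = 4 each). Only through the conspecific workers did its mean reach the 1 CPM that the choice required, so the choice was not independent of this difference, and the call supports nothing about the members. Its log2 fold change was -5.18 (SE 0.76, adjusted p = 0.0348 in edgeR). With each wasp left out in turn the log2 fold change ran from -5.58 to -4.17, but the call was lost without any 1 of 13 wasps and kept without F17, F25, F52 or FW25. DESeq2 called it and PfusTSAr1.0-023698, which had a log2 fold change of -4.50 (adjusted p = 0.114) in edgeR, and limma-voom called neither. PfusTSAr1.0-023698 averaged 1.03 CPM in allospecific and 24.3 CPM in conspecific workers. Its mean too reached the required 1 CPM only through the conspecific workers, so this call likewise supports nothing about the members. At an unadjusted p under 0.05 there were 12 members, 10 higher and 2 lower in allospecific workers, 4.01% of those tested against 2.65% of all contigs, of which 1.15% were higher and 1.5% lower. The number ran from 5 to 51 over the alternatives. It was 5 without FW47, 1.67% against 2.21% of all, 26 without FW10, 8.70% against 2.96%, 38 without F17, 12.7% against 4.64%, and 51 in a fit of the workers alone, 17.1% against 5.34%.

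In 26 members all 4 allospecific workers lay above all 4 conspecific workers, 8.67% of the members, where 1.14% of the contigs that could be chosen did so. The opposite order was met by 1 member, PfusTSAr1.0-029153, 0.333% against 1.62%. Among the 26 were PfusTSAr1.0-065071, at 65.7 to 76.4 CPM in allospecific workers and 50.5 to 65.4 CPM in conspecific workers, and PfusTSAr1.0-073987, at 105.4 to 115.4 CPM in allospecific workers and 80.7 to 92.0 CPM in conspecific workers, both named after their values were seen. Foundresses reached at most 27.7 CPM for PfusTSAr1.0-065071 and 69.4 CPM for PfusTSAr1.0-073987. The rule puts every worker above every foundress. In all 26 the conspecific workers therefore lie between the other workers and the foundresses by the choice, which is no result. In means of CPM by totals, with no fit, the allospecific workers were higher at 237 of 300 members, 79.0%, against 44.4% of the contigs that could be chosen. Of the allospecific workers 2 of 4 were collected in August, and of the conspecific workers 1 of 4. With terms for June and August in the fit 82.6% of members were above 0, with a median log2 fold change of 0.16. The part of collection month in the difference was not tested.

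**Figure D5:**
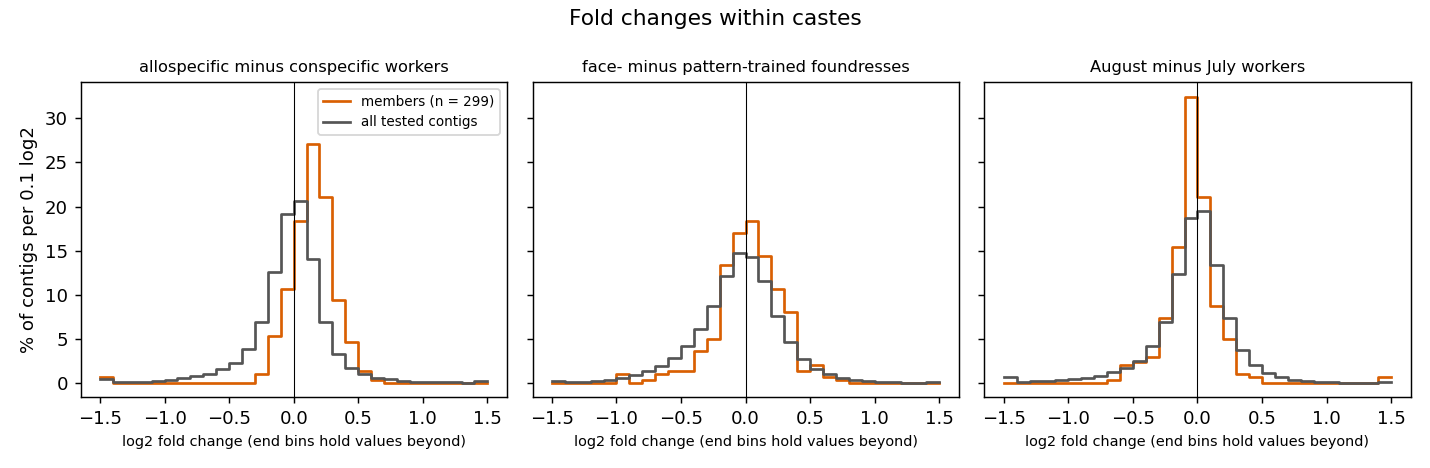
Share of contigs per 0.1 log2 of fold change for the 299 members tested and for all 61002 contigs tested, in comparisons within workers (nest, month) and within foundresses (training). The members' curve lies to the right of the other in the nest panel, with medians of 0.15 and 0.00, and near it in the training and month panels.

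Training to faces or to patterns gave no called member. In the fit across all contigs 0 of 299 members and 0 of 61002 contigs passed the FDR in edgeR, 0%, and DESeq2, which kept an adjusted p for 55 members, and limma-voom each called 0 members. At an unadjusted p under 0.05 there were 20 members, 6.69%, against 7.14% of all. Of the 20, 14 were higher and 6 lower in face-trained foundresses, where 2.64% of all contigs were higher and 4.5% lower. The log2 fold change of face-trained over pattern-trained foundresses was above 0 in 167 members, 55.9%, against 45.2% of all, with a median of 0.03 against -0.03. Without F17 it was above 0 in 125 of 300 members, 41.7%, against 49.7%, with a median of -0.05, so the direction of the median rested on F17, and it also turned without F25. June held only pattern-trained foundresses. With June and August terms 200 of 299 members, 66.9%, were above 0, against 50.5% of all, with a median of 0.15, and 44 members had an unadjusted p under 0.05, 14.7% against 15.7%.

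The members of smallest p in this comparison did not pass. PfusTSAr1.0-057420 had 20.2, 16.5, 17.0, 14.5 and 16.4 CPM in foundresses trained to faces and 10.2, 13.1, 8.92 and 13.1 CPM in those trained to patterns, without overlap. Its log2 fold change was 0.51 (SE 0.14, adjusted p = 0.676 in edgeR). PfusTSAr1.0-032994 had 5.81, 6.34, 5.45, 3.76 and 6.12 CPM in foundresses trained to faces and 7.67, 7.41, 6.50 and 9.02 CPM in those trained to patterns, with a log2 fold change of -0.57 (SE 0.16, adjusted p = 0.676). In workers, which had all been trained to faces, PfusTSAr1.0-032994 ran from 9.04 to 16.5 CPM.

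Collection month within workers gave no called member either. With nest in the fit, 0 of 299 members and 0 of 61002 contigs passed the FDR in edgeR, 0%, DESeq2 and limma-voom called 0 members, and 7 members had an unadjusted p under 0.05, 2.34% against 1.95%. Of the 7, 1 was higher and 6 lower in August workers, where 0.674% of all contigs were higher and 1.28% lower. The log2 fold change of August over July workers was above 0 in 111 members, 37.1%, against 49.0% of all, with a median of -0.04 against -0.01. This direction turned with the measure: in means of CPM by totals, with neither nest nor TMM taken into account, August workers were higher at 198 of 300 members, 66.0%, against 59.9% of the contigs that could be chosen. Which of these choices turned it was not tested. The smallest p values, neither of which passed, belonged to PfusTSAr1.0-029153 on the higher side, 1.74 (SE 0.61, adjusted p = 0.99994), and PfusTSAr1.0-080700 on the lower side, -0.60 (SE 0.23, adjusted p = 0.99994). The first was carried by FW47, the 1 conspecific August worker, and without it the log2 fold change was 0.35. PfusTSAr1.0-080700 averaged 13.9 ± 3.92 CPM in August workers (SD, n = 3) and 18.1 ± 5.02 CPM in July workers (n = 5), and the groups overlapped.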

How the data were processed

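RNA of 17 single brains was analysed. The deposited table holds whole-number read counts per contig, not normalized as far as the values show, and 1 column per wasp. Trimmomatic 0.32, Bowtie2 and eXpress are listed, with no role, in the submitters' processing notes. How reads matching more than 1 contig were counted is not stated there. If such reads were counted at each contig, neighbours repeat the same reads.

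The set and the choices of tests were made with earlier results of these data known. The contigs named were the 10 members of largest ratio, the 10 of highest worker mean, the 5 widest and 3 narrowest gaps with the 3 nearest non-members, the longest run, and those of smallest p in each comparison within a caste. Other contigs stand at the limit on number, beside a named member or next in likeness to one, or were named after their values were seen.

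Fits used R 4.3.3 and edgeR 4.0.16 on contigs that passed edgeR's expression filter by group (61002, with 99.4% of counts), TMM scaling and 1 mean per group over all 17 libraries, with June and August terms for month. Tests were two-sided quasi-likelihood F-tests with Benjamini-Hochberg adjustment. The edgeR test between nests was tried on simulated data with planted changes far larger than the members' median difference between nests. Training and month were not simulated, so the trial says nothing on them or on small changes. Alternatives used DESeq2 1.42.0, limma 3.58.1, other scaling and filters, single castes and leaving out each wasp. Leaving out FW28 with F55, and each wasp for the opposite order, was added after the data were seen. Libraries of a group always differed by more than counting noise (chi-square per degree of freedom 7.58 or above). Each wasp is a separate animal, and its colony of origin is not given in the labels. Limits on counts of 0 cover counting error only.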

Additional observations from a re-analysis of the deposited data

Results flagged for a closer look

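In 14 of 156 sets of values, 1 wasp lay far from the rest of its group by Dixon's test, where chance gives about 7.8. The sets share wasps, and contigs of a run may share reads. The sets are thus not independent, and no excess over chance was tested. F17 was that wasp in 7 of them. The levels are CPM by totals, and TMM scaling raises F17 against every other wasp. Dixon's test was not repeated on the TMM scale. Among foundresses trained to patterns F17 was low in PfusTSAr1.0-033608, at 3.80 CPM against 9.52 to 10.6 CPM, and in 4 contigs of the longest run. These were PfusTSAr1.0-081300 at 147.8 CPM against 194.4 to 197.8 CPM, PfusTSAr1.0-081304 at 26.1 CPM against 50.4 to 54.3 CPM, PfusTSAr1.0-081308 at 130.9 CPM against 186.0 to 193.0 CPM, and PfusTSAr1.0-081309 at 142.1 CPM against 189.9 to 199.3 CPM. F17 was also the 1 wasp of its group with any count of PfusTSAr1.0-023698, 0.0656 CPM, and of PfusTSAr1.0-029152, 0.131 CPM. All foundresses together had 4 counts of each of these contigs. With the rest of the group at 0, any count is flagged, so these flags say nothing about F17.

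Among foundresses trained to faces, F42 was low in PfusTSAr1.0-087681, at 190.7 CPM against 287.1 to 314.2 CPM, and in PfusTSAr1.0-080254, at 193.2 CPM against 221.7 to 227.0 CPM. F29 was high in PfusTSAr1.0-093097, at 365.9 CPM against 234.3 to 269.5 CPM, and F35 in PfusTSAr1.0-025172, at 1.21 CPM against 0.291 to 0.540 CPM. Among workers, FW11 was high in PfusTSAr1.0-029891, at 9.27 CPM against 6.49 to 6.89 CPM in the other allospecific workers. FW25 was high in PfusTSAr1.0-049131, at 22.3 CPM against 15.6 to 16.7 CPM, and in PfusTSAr1.0-057420, at 35.6 CPM against 26.5 to 27.9 CPM in the other conspecific workers.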

How the results depend on the processing

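The 620 contigs that met the rule numbered 452 to 636 under other scalings and minimums, 488 with 1 contig per run, 629 to 1151 with a wasp left out (1151 without FW28, 1025 without F55) and 2130 without both. Leaving out wasps loosens the rule, so the direction of those last changes was fixed. The median share of contigs on which a held-out wasp lay on its caste's side was 94.0%, and 90.3% with TMM. Calls between nests, 7 of 61002, numbered 36 with DESeq2, 49 without a filter, 28 with workers alone, 2 with month terms, 2 without FW28 and F55, and 0 to 16 with a wasp left out (16 without F17). Members among them, 1, numbered 2 with DESeq2, 0 with limma-voom, 3 without a filter, 0 with workers alone, 0 without FW28 and F55, and 0 to 3 with a wasp left out. Training calls, 0, were 11 with DESeq2, 5 without a filter and 0 to 1 with a wasp left out. Month calls, 0, were 1 with DESeq2 and 663 without a filter, 3 of them members, and 0 with any wasp left out. The cause was not tested. The members' median log2 fold change lay at 0.12 to 0.17 by nest and -0.09 to 0.00 by month over the alternatives, and at -0.054 to 0.15 by training (0.15 with month terms, -0.054 to 0.094 with a wasp left out), turning to -0.054 without F17 and -0.011 without F25. The direction of the ratio of workers over foundresses is fixed by the choice when a wasp is left out, so it is no sign of stability. No paired analysis was possible because every library is another wasp and nothing in the labels ties wasps together. Counts of 0 and members under 1 CPM in foundresses are limited by depth, which was lowest in F3.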
